A study of Mus musculus with 5 samples.

Results

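The strongest Pou4f1 regions in both replicates are 423 of the 8038 genomic regions in the deposited CUT&Tag table, 421 on chromosomes and 2 on unlocalized or unplaced scaffolds. They were selected on the measured signal, as regions with a value of 400 or more in Pou4f1 replicate 1 and in Pou4f1 replicate 2. The Pou4f1 values therefore describe these regions and are not a finding. The regions were called on Pou4f1 libraries, so that their number and length also follow from that signal. The material was retina of wild-type (WT) mouse embryos at E16.5, with 4 retinas pooled for a library. Rabbit anti-Pou4f1 was used for 2 libraries, rabbit IgG for 2 and rabbit anti-H3K9AC for 1, which was not analysed here. A value is the mean signal over a region and not a read count, and no source used here states how deeply the libraries were sequenced. Whole retina was used, so a signal cannot be assigned to a cell type.

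Pou4f1, also called Brn3a, is a transcription factor of the POU-homeodomain family that most retinal ganglion cells express as they differentiate. Its POU-specific domain and its homeodomain contact adjacent parts of an AT-rich DNA site, the Brn-3 consensus. In CUT&Tag, an antibody tethers a transposase to chromatin, which tags the DNA near the bound protein, at promoters as well as at distal elements.

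The sequences below show what a Brn-3 site looked like at the centre of members with high signal and at members in or beside genes of axons and synapses. Each is the reference sequence of mm10, read on the strand that carries the consensus, 5′ to 3′, with the site in capitals and 30 bases to each side. The site was within 100 bp of the midpoint of its region in each case, since only such sites were taken.
Zdhhc19 intron (chr16:32524311-32524380, plus strand): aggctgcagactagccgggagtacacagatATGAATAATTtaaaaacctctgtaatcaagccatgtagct
Efna5 intron (chr17:62844640-62844709, plus strand): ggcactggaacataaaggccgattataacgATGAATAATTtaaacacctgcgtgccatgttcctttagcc
Gm47715 intron (chr10:25019166-25019235, minus strand): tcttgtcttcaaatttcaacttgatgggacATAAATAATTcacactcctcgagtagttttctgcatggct
Abcb8 start (chr5:24394713-24394782, minus strand): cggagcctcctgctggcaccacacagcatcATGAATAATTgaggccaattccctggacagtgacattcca
Thsd7b intron (chr1:129473798-129473867, plus strand): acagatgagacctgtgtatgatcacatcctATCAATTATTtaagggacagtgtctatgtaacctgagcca
Soga3 start (chr10:29143752-29143821, minus strand): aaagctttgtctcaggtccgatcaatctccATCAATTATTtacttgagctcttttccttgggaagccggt
Purb start (chr11:6476335-6476404, plus strand): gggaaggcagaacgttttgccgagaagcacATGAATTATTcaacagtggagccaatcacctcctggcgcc
Cntnap2 intron (chr6:46451392-46451461, plus strand): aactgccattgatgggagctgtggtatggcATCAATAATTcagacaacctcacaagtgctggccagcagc
Grik1 intron (chr16:88187544-88187613, plus strand): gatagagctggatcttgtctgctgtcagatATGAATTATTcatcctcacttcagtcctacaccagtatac
Plxna4 intron (chr6:32203531-32203600, plus strand): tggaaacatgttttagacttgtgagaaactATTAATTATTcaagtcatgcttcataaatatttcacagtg
Syt1 intron (chr10:108767609-108767678, plus strand): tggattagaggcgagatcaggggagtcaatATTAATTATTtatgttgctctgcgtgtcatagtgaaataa
The Zdhhc19, Efna5 and Abcb8 members carried the same word, ATGAATAATT. The bases just after it were alike but not identical in Zdhhc19 and Efna5, starting with taaa in both, and differed in Abcb8. Over 53 members with a central site, 8 different words occurred, of which ATGAATAATT and ATGAATTATT were each found in 12 members and ATTAATTATT in 8. The median distance of the site from the midpoint was 54 bp, a value that the limit of 100 bp bounds. In 15 of the 53, the site and the bases beside it, as in Grik1 and Syt1, also read as the consensus on the other strand, and the word nearer to the midpoint was counted. A separate further site was present elsewhere in the region of 3 of the 53 members.

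The signal of the members ran from 400.3 to 5312 in Pou4f1 replicate 1, with a median of 516, and from 400.1 to 5201 in replicate 2, with a median of 615. The other 7615 regions had medians of 179 and 147. Pairs of values below are those of Pou4f1 replicates 1 and 2 or, for IgG, of the library named IgG and of that named negative control, in that order. The library named IgG had a median of 2.33 and a highest value of 81.4 over the members, and was listed at 0 in 209 of them. That named negative control had a median of 0 and a highest value of 137, and was listed at 0 in 227. Other regions reached 445 and 736 in these libraries. In all 423 members both Pou4f1 values lay above both IgG values, an order that 96.5% of all regions share. With limma, 393 of the 423 members were higher in Pou4f1 at an adjusted p under 0.05, where 64.8% of all regions passed. The count of members was 131 with column totals as library sizes and 163 without either Pou4f1 replicate, where 1821, 2360 and 2484 of all regions passed. These counts use the Pou4f1 signal that chose the members, and nothing is read from them. Each of the 30 members that did not pass was listed at 0 in 1 IgG library and had at least 23.1 in the other.

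**Figure D1:**
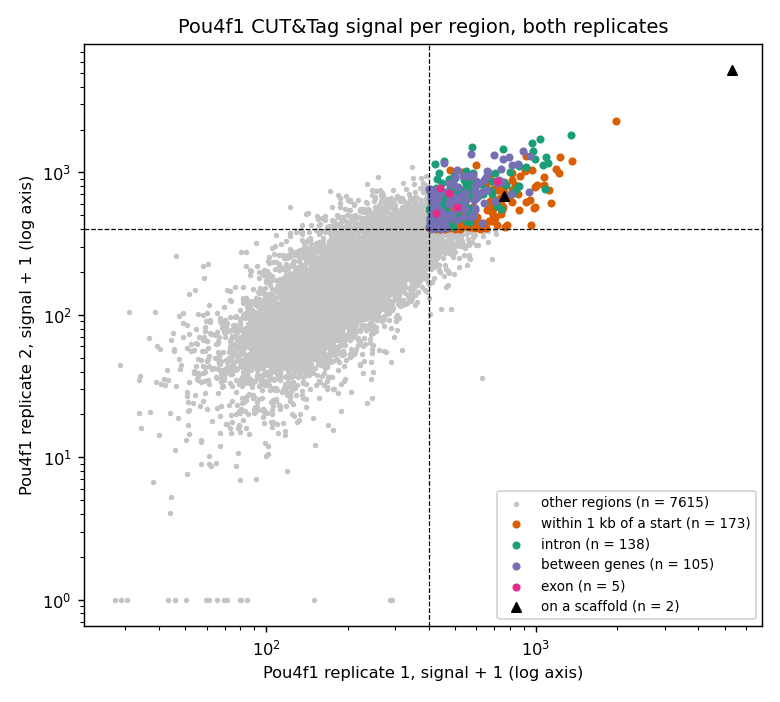
Signal + 1 of every region in Pou4f1 replicate 1 (horizontal, log axis) and replicate 2 (vertical, log axis), with dashed lines at a signal of 400. Members are coloured by location, members near starts lie lower and further right than intronic and intergenic members, and the scaffold region at the top right stands apart from all others.

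The strongest region lay on the scaffold chr4_GL456216_random, from 15622 to 17553, with 5312 and 5201 in Pou4f1 replicates 1 and 2, while the library named IgG and that named negative control had 12.6 and 20.9. It covers the start of CAAA01118383.1, whose transcript GENCODE pairs with the RefSeq transcript of Dhrsx, a short-chain dehydrogenase. The other scaffold member, on chrUn_JH584304 from 59515 to 60294, had 760 and 677 against 46.4 and 31.3, and lay 0.215 kb from the start of AC149090.1, which is paired with the pseudogene Pisd-ps3. How reads that fit several places were treated is not stated in any source used here, and sequence of unplaced scaffolds can have copies elsewhere.

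On chromosomes the leading member lay over the start of Ell (ENSMUSG00000070002.7), which encodes an RNA polymerase II elongation factor, at chr8:70538036-70540609. Its Pou4f1 values were 1980.1 and 2279, beside 9.33 and 21.6 in IgG. The next lay within an intron of Tmem178b, a transmembrane protein gene, at chr6:40019169-40019934, 90.7 kb from the nearest annotated transcript start of that gene. Its values were 1348 and 1816, and both IgG libraries were listed at 0. The Ell member thus had signal in both IgG libraries, and that in Tmem178b in neither.

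Other members at starts were among the 15 strongest. The member at Tef, which encodes a PAR bZIP transcription factor, had 1230.1 and 1291 over 3153 bp at chr15:81809979-81813131, against 11.99 and 26.4 in IgG. The one at chr16:42874663-42876042 lay 0.528 kb from a start of Zbtb20, a zinc finger transcription factor gene, and 0.234 kb from that of the noncoding 4932412D23Rik. Its values were 1357 and 1198, with 8.84 and 57.2 in IgG. At the start of Etv5, which encodes an ETS-family transcription factor, the values were 1185 and 1061 against 26.1 and 29.0. The Abcb8 member at chr5:24394056-24395438, beside the start of a mitochondrial ABC transporter gene, had 1214 and 995 and no IgG signal, and it held the Brn-3 site shown above. At Sgsm2, a gene of a small-GTPase regulator, the values were 962 and 1042 against 21.7 and 17.4. Except at Etv5, Abcb8 and 4932412D23Rik, replicate 2 was the higher of the pair in these members.

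Introns held the other members of the 15. In Zdhhc19, a palmitoyltransferase gene, the member at chr16:32524014-32524799 had 1109.5 and 1166 and no IgG signal. In Cacna2d2, which encodes a voltage-gated calcium channel subunit, it had 1085 and 1275 against 21.6 and 25.2 at chr9:107416297-107417956. The Efna5 member at chr17:62844334-62845146 lay 36.4 kb into the gene of ephrin-A5, a guidance ligand of retinal axons, and had 1061 and 1131 against 0 and 17.5. A long noncoding RNA gene, Gm47715, held a pair of members 0.204 kb apart, with 1029.6 and 1725 at chr10:25018747-25019699 and 581 and 843 at chr10:25017561-25018542. Both carried the Brn-3 consensus at their centre. Introns of Sdk1, a synaptic adhesion gene of the immunoglobulin superfamily, of Fam219a and of Eml1, a microtubule-binding protein gene, held members with 988 and 1237, 977 and 1416 and 967 and 1601. Fam219a and Eml1 were listed at 0 in both IgG libraries, and Sdk1 had 0 and 26.4. In every one of these intronic members replicate 2 was above replicate 1.

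**Figure D2:**
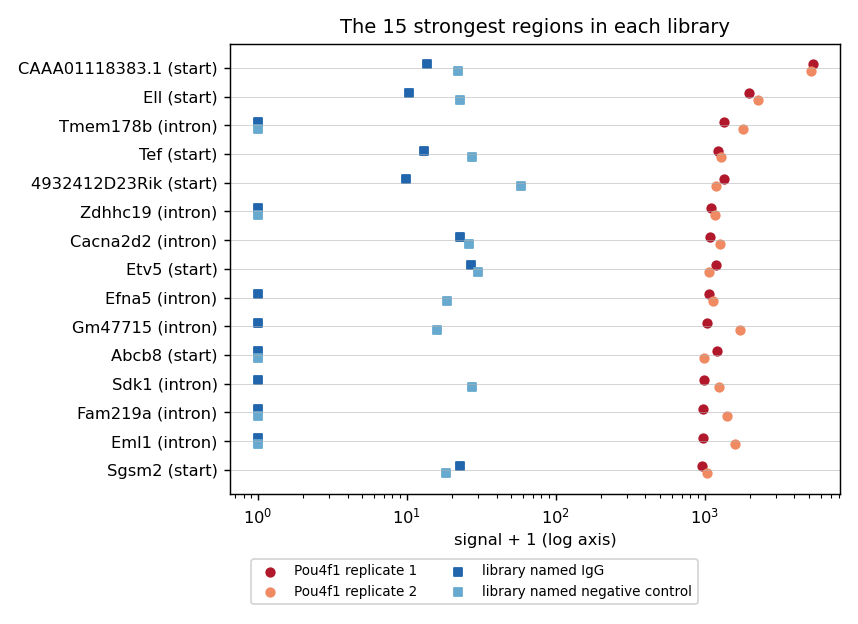
Signal + 1 (horizontal, log axis) of the 15 strongest regions, named by the gene they lie in or whose start they lie at, as points for each of the 4 libraries. The Pou4f1 values are near or above 1000 throughout, and no IgG value exceeds 57.2.

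The members were divided among starts, introns and the space between genes, where most of the other regions were at starts. A midpoint within 1 kb of a GENCODE start, the 5′ end of any annotated transcript of a gene, was found for 173 of the 421 members on chromosomes (41.1%, 95% exact binomial interval 36.4 to 46.0), against 4974 of 7607 other regions (65.4%). Introns held 138 members (32.8%, against 17.8%), the space between genes 105 (24.9%, 20.9 to 29.4, against 14.7%) and exons 5 (1.19%, against 2.08%). The exonic members were those in Tnfaip8l1, Mpdz, Spsb4, Hist1h2be and, beside Slc18a2, in the noncoding Gm29261. Intervals cover counting error only, and regions are not replicates, so no test was made of these shares. Median distance to the nearest start was 4.51 kb for members and 0.226 kb for the others. The share near a start was 73.9% of the regions whose lower Pou4f1 value was under 100, 48.1% between 300 and 400 and 40.5% between 400 and 500. Above that it was 38.5% between 500 and 600, 42.9% between 600 and 800 and 50% of 30 regions at 800 or more. With replicate 1 left out, 914 regions reached 400 in replicate 2 and 25.1% of them lay at starts, and with replicate 2 left out, 58.5% of 655 did.

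**Figure D3:**
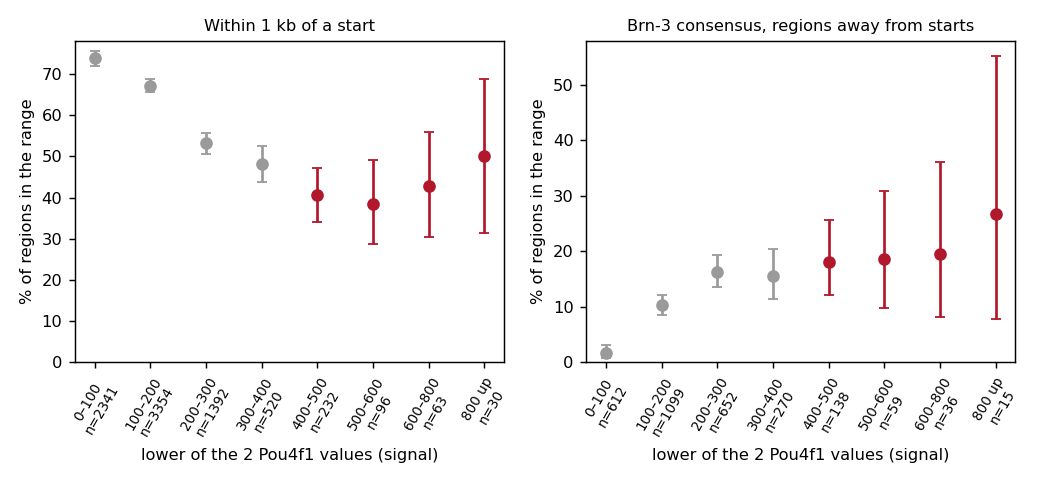
Share of regions within 1 kb of a start (left) and share of the regions away from starts with the Brn-3 consensus in the central 200 bp (right), by the lower of the 2 Pou4f1 values, with 95% exact binomial intervals and the number of regions under each range. Members are red; the left share goes from 73.9% to about 40% and levels off, and the right share goes from 1.63% to 18.1% at 400 to 500.

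At starts, 160 of the 173 members had a protein-coding start within 1 kb (92.5%, against 96.3% of the others). Coding starts on both strands were present at 25 (14.5%, against 11.8%). The 13 without a coding start (7.51%, against 3.74%) included the members at Rnu3b1 and Rnu3b2, near-identical genes of the U3 small nucleolar RNA, between which the assignment of reads is uncertain. These had 789.6 and 659, and 446 and 452. The midpoint lay downstream of the nearest start in 42.8% of the members at starts and in 55.7% of the other regions there, with median offsets of -27 bp and 14 bp.

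Away from starts, the host genes of intronic members had a median length of 195 kb (interquartile range 87.2 to 412), against 193 kb for the other intronic regions. A protein-coding host was annotated for 118 of the 138. Hosts over 500 kb held 21 members (17.8%) against 20.1% of the other intronic regions with a coding host. Intergenic members were a median of 76.0 kb from a protein-coding start (26.3 to 131), against 60.03 kb (20.1 to 171) for the others, and 38 of 105 were beyond 100 kb (36.2%, against 37.7%).

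Members had a median length of 953 bp (interquartile range 720 to 1262) against 997 bp (800 to 1254). Within the classes the order differed. Members at starts had a median of 1058 bp against 1022 bp, intronic members of 831 bp against 942 bp and intergenic members of 923 bp against 929 bp. Both tails held more of the members. Regions above 2 kb made up 4.04% of members and 2.35% of the others, and regions under 500 bp 4.04% and 1.96%. The longest member was 3364 bp and the shortest 316 bp.

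Median GC content was 51.1% in members and 59.9% in the other regions. At starts it was 60.3% against 62.8%, in introns 47.6% against 48.7% and between genes 47.7% against 49.1%. The ratio of observed to expected CpG had a median of 0.310 against 0.679 over all, and of 0.755 against 0.773 at starts. Repeat-masked bases made up a median of 6.69% of a member and 5.54% of another region.

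The Brn-3 consensus, searched on both strands, occurred in the central 200 bp of 55 members (13.1%, 95% exact binomial interval 9.995 to 16.7) and of 297 other regions (3.90%, 3.48 to 4.36), or 4.38% of all regions. Of the 55, 2 lie on chromosome 18 and their sites are left out of the count of words above. Windows of the same length 2 kb to each side held it in 11 of 842 for members (1.31%) and in 0.894% for the others. Location classes differ in base composition, so they were also taken apart. In introns the share was 33 of 138 members (23.9%, 17.1 to 31.9) against 10.7% of the other intronic regions, beside 1.09% and 1.07% in the windows to each side. Between genes it was 14 of 105 (13.3%, 7.49 to 21.4) against 10.3% (8.57 to 12.2), and these intervals overlap. At starts it was 8 of 173 (4.62%, 2.02 to 8.91) against 0.543%, with 1.16% and 0.824% to each side. Next to the threshold, regions at starts held it in 10 of 250 (4%) with a lower Pou4f1 value of 300 to 400. Those of 400 to 500 held it in 2 of 94 (2.13%). For 500 to 600, 600 to 800 and 800 or more, the counts were 3 of 37, 0 of 27 and 3 of 15. Over whole regions the consensus was found in 121 members (28.7%) and in 10.1% of the others.

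**Figure D4:**
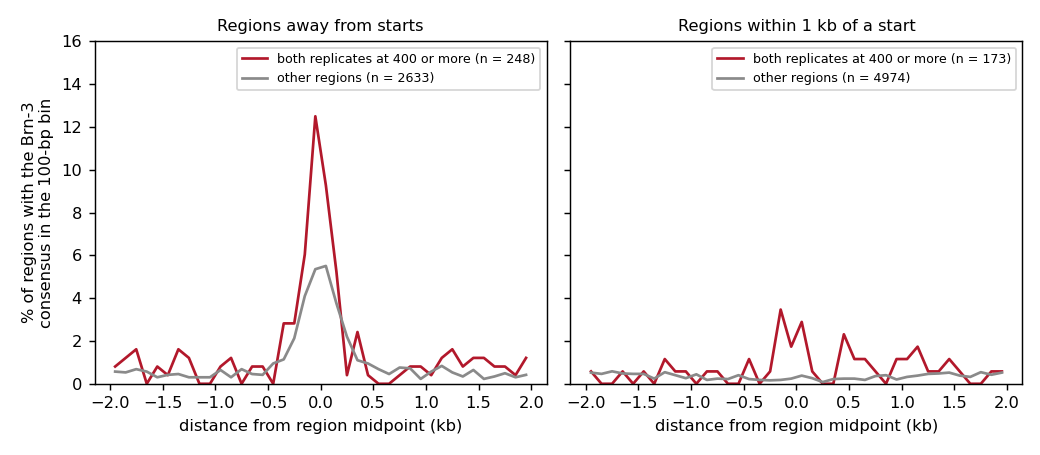
Share of regions with the Brn-3 consensus in each 100-bp bin (vertical, in %) by distance from the region midpoint (horizontal, in kb), for members (red) and other regions (grey), away from starts (left) and within 1 kb of a start (right). Away from starts the members reach 12.5% in the bin just left of the midpoint and the others 5.51% at theirs.

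Away from starts, the share with a central site was 1.63% of regions with a lower value under 100, 10.2% between 100 and 200 and 16.3% between 200 and 300. Next to the threshold it was 15.6% between 300 and 400 and 18.1% between 400 and 500, and the intervals of these ranges overlap (11.4 to 20.4 and 12.1 to 25.6). Among members away from starts, the 47 with the site had medians of 483 and 715 in the Pou4f1 replicates, and the 201 without it had 496 and 657. Median lengths were 783 bp and 881 bp.

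Those with a site at a start were at Abcb8, Soga3, Purb, Mepce, Prima1, Gm45645 within Erc2, Gm44441 within Chl1, and Gm807. Soga3, with 910.3 and 1024, Purb, with 817 and 996, and Abcb8 were among the strongest 30 members, and all were listed at 0 in both IgG libraries. Purb encodes a single-stranded nucleic acid-binding protein of the Pur family. Chl1 encodes a neural adhesion molecule related to L1, and its member had 596 and 1127 against 18.9 and 11.0.

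Intronic members with a central site lay in genes that include several of neuronal adhesion, channels and synapses. Cntnap2, a gene of the neurexin superfamily, held one with 769 and 819.7 at chr6:46451127-46451634. In Erc2, which encodes an active zone protein, an intronic member had 714 and 576 and the member at the start of Gm45645 had 502 and 714. Tnr, the gene of the matrix protein tenascin-R, had 468 and 450.4, and Piezo2, which encodes a mechanosensitive channel, had 549 and 1019. In Ptprm, a receptor tyrosine phosphatase gene, the values were 414 and 517. The remaining hosts were Zdhhc19, Efna5, Gm47715 with its pair, Thsd7b, Snx29, Grik1, Ercc6, Pcsk5, Gm37240, Smyd1, Sh3d19, Shisal1, Lrrk1, Creb5, Plxna4, Klhl1, Palld, Fam169b, Anks1b, Ptk7, Atp11a, Cdc14a, Chst8, Syt1, AY512915, Macrod2 and Tspan18. These were grouped after their values were known, and no enrichment of any function was tested.

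The 14 intergenic members with a central site had nearest protein-coding starts that included those of Snx10, Kcng1, Arid1b, Cacnb3, Matn1, Prima1, Rpl10l, Nfil3, Myt1l, Pudp, Agbl1 and Vrk2. Distances ran from 2.09 kb at Cacnb3, which encodes a calcium channel beta subunit, to 388 kb at Vrk2. Myt1l encodes a zinc finger factor of neurons, and its member, 289 kb away, had 420.4 and 715. A nearest gene is a position and does not say which gene an element acts on.

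Other short motifs were counted in the same central windows on both strands. The related POU4 core TAATTAAT, which can overlap the consensus, was in 2.85% of members and 1.12% of the others, and the homeobox core TAATTA, part of it, in 7.60% and 3.26%. Away from starts these were 4.03% against 2.73% and 11.7% against 8.13%. The windows 2 kb to each side of members held TAATTAAT in 2.14% and TAATTA in 6.06%, and those of the others in 0.927% and 5.41%. For the E-boxes the shares were closer, with CAGATG in 14.96% against 10.6% and CAGCTG in 17.8% against 13.4%, and away from starts 20.6% against 18.04% and 21.4% against 16.48%. To each side CAGATG was in 16.51% for members and 14.8% for the others, and CAGCTG in 6.89% and 8.93%. At starts the CCAAT box, CCAAT, was in 39.9% of members (32.5 to 47.6) and 22.6% of the others, and the GC box GGGCGG in 57.2% and 53.6%. The ETS site CCGGAAG was in 4 of 173 members at starts (2.31%, 0.633 to 5.81) and in 8.32% of the others. For the CTCF core AGNNGGCGC the shares at starts were 9.25% and 10.8%, for the NRF1 site GCGCATGCG 2.31% and 1.83%, for the YY1 site AAGATGGCG 0.578% and 1.79% and for the CRE TGACGTCA 1.73% and 1.35%. The octamer ATGCAAAT, bound by POU factors of the Oct family, was at starts in 4 of 173 members (2.31%) and 0.442% of the others, and 2 of the 4 were the histone regions at Hist1h2bb and Hist1h2bm. Away from starts it was in 1 of 248 members (0.403%) and 1.25% of the others. The GFY site TACAATTCC was in 0 of 421 members, with an interval of 0 to 0.872%, and in 0.158% of the others.

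The replicates differed by location. Over the members the ratio of replicate 1 to replicate 2 had a median of 0.877, with 1.06 at starts, 0.770 in introns and 0.782 between genes. Replicate 1 was the higher in 98 of 173 members at starts, but in 20 of 138 in introns and 19 of 105 between genes. The other regions showed the same order, with medians of 1.44, 0.855 and 0.863. Which of the replicates is taken thus bears on the share of members at starts. The rule on both left out 232 regions that reached the threshold in replicate 1 only, of which 90.1% lay at starts. It also left out 491 regions that reached it in replicate 2 only, of which 11.4% lay at starts. Ratios beyond 2 either way were found in 1 and 9 of the 421 members, and in 1224 and 267 of the 7607 other regions. Both values of a member had to reach the threshold, which limits how far they can differ. The counts of members therefore do not show how well the replicates agree.

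The smallest ratios were those of members away from starts. The lowest, 0.365, was in an intron of the noncoding D130079A08Rik at chr14:104356479-104357091, 109 kb from Pou4f1 itself, its nearest coding start, with 421 and 1151 against 0 and 22.5. Next were members in Usp25, with 453 and 1202, in Cdh10, a cadherin gene, with 576 and 1510.4, beside AC117805.1, with 454 and 1167, and 177 kb from Gm18252, with 572 and 1349.5. The largest ratios were all at coding starts. They were 2.25 at AW549877, with 954 and 424, 1.85 at Rps6ka5, with 1133 and 611, 1.84 at Sp1, which encodes a GC-box-binding factor, with 767 and 416, 1.81 at Pja2, with 776 and 429, and 1.73 at Trim45, with 979 and 564.

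IgG signal was listed at 0 in both libraries for 129 of the 421 members (30.6%, 26.3 to 35.3) and for 22.4% of the others. At starts the shares were 19.7% and 18.4%, in introns 44.2% (35.8 to 52.9) and 29.5%, and between genes 32.4% and 31.0%. The highest IgG mean among members was that at the start of Gm13272, with 81.4 and 137 beside 636 and 439 in Pou4f1. Those at Wipi1, an autophagy gene, had 37.7 and 83.1 beside 519.9 and 403, at Add3, a cytoskeletal adducin gene, 28.5 and 80.4 beside 679 and 533, on chromosome X near 2010308F09Rik 47.4 and 43.4 beside 408 and 403, and at Hist1h2bf 12.8 and 68.4 beside 579 and 909.9. Even there the lower Pou4f1 value was above the higher IgG value.

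Members lay on every autosome and on X, from 2 on X, of 100 regions, to 37 on chromosome 1, of 553. The highest share was on chromosome 13, with 33 of 355 (9.30%, against 5.26% over all regions). Of these, 12 lay in the Hist1 clusters, 11 at histone gene starts and 1 in an exon of Hist1h2be. Histone starts were 11 of the 173 members at starts (6.36%) and 19 of the 4974 others (0.382%). The replication-dependent histone genes are expressed in dividing cells in S phase, and genes of H2A and H2B often share a promoter. Of 14 regions at a start of H2A or H2B, 9 were members, and of 16 at other histone starts, 2, both at genes of H3. Median Pou4f1 values were 427.5 and 633 in the 14 and 274 and 414 in the 16. Regions at starts of no histone gene had medians of 182 and 130.

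The intervals between the facing starts of Hist1h2ae and Hist1h2bg and of Hist1h2ac and Hist1h2bc are shown because they lie in the strongest divergent histone members that hold an octamer, a known element of H2B promoters. Each is the plus strand of mm10, with CCAAT and octamer letters of either strand in capitals.
Hist1h2ae to Hist1h2bg (chr13:23571221-23571395): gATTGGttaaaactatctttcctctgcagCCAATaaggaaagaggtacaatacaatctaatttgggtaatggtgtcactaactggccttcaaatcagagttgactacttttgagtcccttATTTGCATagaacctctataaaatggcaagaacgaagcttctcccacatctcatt
Hist1h2ac to Hist1h2bc (chr13:23683949-23684198): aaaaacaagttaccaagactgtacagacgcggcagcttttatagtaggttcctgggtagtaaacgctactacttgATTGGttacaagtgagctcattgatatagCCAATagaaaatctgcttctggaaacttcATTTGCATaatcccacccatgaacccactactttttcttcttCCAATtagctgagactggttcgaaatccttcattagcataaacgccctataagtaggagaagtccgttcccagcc
The first had 670.4 and 935 in Pou4f1 against 50.2 and 19.7, and the other 645 and 815 against 8.69 and 29.8. The further H2A or H2B members were Hist1h2bb, with 719 and 759, Hist1h2ag with Hist1h2bj, with 653 and 823, Hist1h2ad with Hist1h2bf, with 579 and 909.9, and Hist1h2ah with Hist1h2bk, with 460.4 and 716. Lower were Hist1h2bm with the pseudogene Hist1h2aj, with 431 and 729.9, Hist1h2ai with Hist1h2bl, with 424 and 551, and Hist1h2ab, with 418 and 452. The Hist1h2ab member also had the start of Hist1h3b, a gene of H3, within 1 kb. At H3 starts without a start of H2A or H2B, the members were Hist1h3b, with 479 and 708, and Hist1h3e, with 465 and 718. In each of the 11 replicate 2 was the higher, as it was in 16 of the 19 regions at histone starts that were not members. Replicate 1 was the higher in 98 of the 173 members at starts. Anywhere in the region, the octamer was in 6 of the 11 and in 2.88% of all regions at starts, and CCAAT in 11 of 11 and 67.8%. The Brn-3 consensus was in none of the 30 regions at histone starts. Histone genes are near-identical copies, so the division of signal among them is uncertain.

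**Figure D5:**
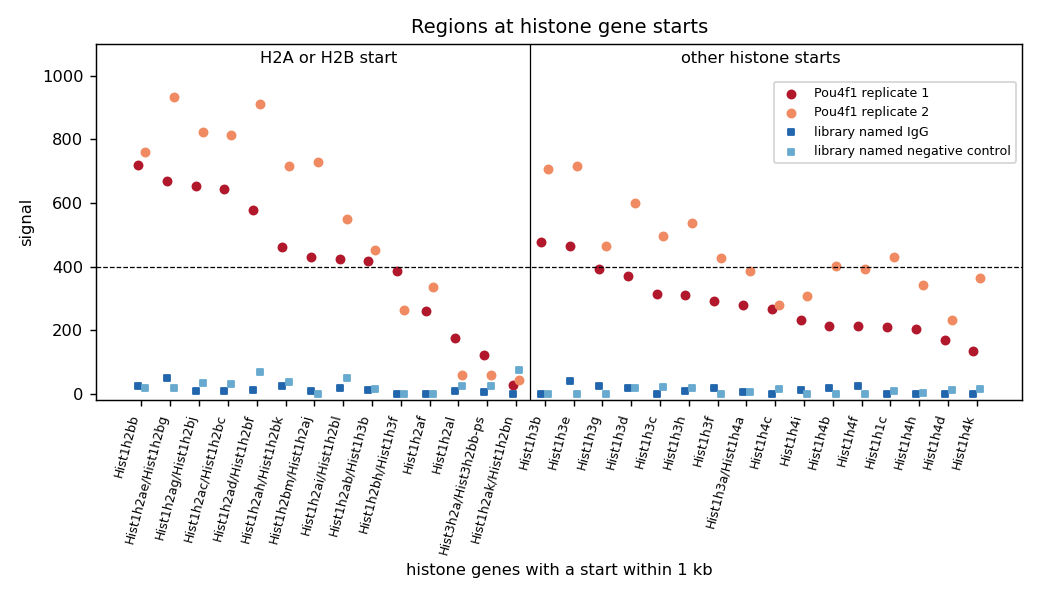
Signal (vertical, linear axis) of the 30 regions with a histone gene start within 1 kb, in the 4 libraries, with a dashed line at 400. Regions at starts of H2A or H2B are left of the solid line and 9 of these 14 lie above the dashed line in both replicates, against 2 of the 16 others.

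Members in or nearest to genes of 12 lists were counted. Of the listed genes, 255 had a region, by host gene or nearest start, and 23 of these had a member (9.02%), against 492 of 8011 genes over all regions (6.14%). By regions, 23 of 401 were members (5.74%, against 5.26%).

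Of 39 factors of retinal ganglion cell differentiation with a region, 5 had a member. Those at starts included Klf7, a Krüppel-like factor of neurite outgrowth, with 516 and 626 at chr1:64121566-64122701, Klf6 with 582 and 540.1, and Nhlh1, a bHLH factor gene, with 453 and 601. The Klf6 member had 33.7 and 0 in IgG, and that at Nhlh1 was listed at 0 in both libraries. In Ebf3, a helix-loop-helix factor gene, an intronic member of 2557 bp had 467 and 609.5. Among 19 marker genes of ganglion cells with a region, 3 had a member, all away from starts. Rbpms and Rbpms2 encode RNA-binding proteins that mark ganglion cells. The Rbpms member, in an intron at chr8:33799133-33800564, had 434 and 983 and no IgG signal. It lay 2.63 kb from an internal transcript start, while the 5′ end of the gene is at chr8:33929863. The Rbpms2 member, at chr9:65659304-65662460, was 3157 bp long with 549 and 643. It lay over the 3′ end of its gene, which spans chr9:65629648-65660528, and 1.91 kb from an internal transcript start. The member nearest to Elavl4, of a neuronal RNA-binding protein, lay 93.6 kb from its nearest transcript start with 460.3 and 468.

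Axon guidance and adhesion genes gave 8 of 53. Besides Efna5 these were introns of Tenm2, with 644 and 768, and Tenm4, with 687 and 872, both genes of teneurins, of Pcdh9, with 569 and 444, of Plxna4, a semaphorin receptor gene, with 477 and 756, of the synaptic adhesion gene Nlgn1, with 423 and 731, and of Ncam1, with 402 and 430.3. The remaining member lay 56.0 kb from the nearest annotated transcript start of Sema6a, within Commd10, with 429 and 507. All 8 were intronic and 2 of them, in Efna5 and Plxna4, had a central Brn-3 site. Genes of synapses and channels gave 4 of 35, all intronic. Kcnq3, of a potassium channel, had 800.3 and 1002, Grik1, of a kainate receptor, 604 and 672, Cacna1a, of a calcium channel, 407 and 522, and Syt1, of the synaptic vesicle calcium sensor, 424 and 554. Those in Grik1 and Syt1 had a central Brn-3 site.

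Ntrk3, which encodes the neurotrophin-3 receptor, was the single one of 8 survival and death genes, with 679 and 738 in an intron and no IgG signal. E2f3 was that of 15 cell cycle genes, with 457 and 421 at its start, and Six3, an eye homeobox gene, that of 15 progenitor and photoreceptor genes, with 485 and 661 at 25.2 kb. By host gene or nearest start of any transcript, no member was linked to the 4 amacrine and horizontal cell genes, 2 glial, vascular and immune genes, 25 splicing and RNA-binding genes, 25 chromatin genes and 15 immediate early and stress genes that had a region. Nearest protein-coding starts, such as that of Arid1b above, were not used in this count. With so few genes in a list, these counts do not show that lists differ.

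Some members were neighbours of each other. The share that a draw of 421 regions would give was not computed, so the share below is not read as few or many. Members no more than 50 kb apart formed 19 groups of 41 members (9.74%), the largest with 4 in the Hist1 cluster, and the 421 had 411 different genes of the nearest start. Another region of any signal lay within 50 kb of 45.8% of members and 42.8% of the others. Fam219a had a member at its start, with 858 and 708, besides the intronic one, and Vamp4, of a vesicle SNARE, had 515 and 411 at its start and 752 and 1455 in an intron. At Dusp6, a MAP kinase phosphatase gene, the start had 737 and 658 and an element 18.5 kb away 473 and 477. In Cdh10, members 10.5 and 18.1 kb from the nearest annotated transcript start had 496 and 936, and 576 and 1510.4. Etfa had the nearest coding start of 3 members, with 585 and 569 at its start, 504 and 466 60.5 kb from its nearest transcript start and 427 and 539 39.8 kb from it. The member 60.5 kb away began at chr9:55426760 and lay within another coding gene, Tmem266.

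Just inside the threshold lay the members at the start of Ifrd1, with 498 and 400.1, in an intron of Sox2ot and Gm38505, with 400.3 and 551, and 60.2 kb from Gm27921, with 401 and 764. Just outside were the regions in an intron of Tgm5, with 399.9 and 786, at the start of Kcnj2, with 544 and 399.7, and in an exon of AC118695.1, with 468 and 399.6. These differ from the members above by less than 1 in the value that decided.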

How the data were processed

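CUT&Tag was done on E16.5 mouse retina. The authors aligned reads to mm10 with Bowtie2 (2.4.5, per the submitters' processing notes), called regions with SEACR in relaxed mode and deposited the mean signal of each region in 4 libraries. No source used here states its scaling or whether replicates were pooled for the calling of regions. The column named for a negative control was taken as rabbit IgG, the only negative control the paper names for CUT&Tag.

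Members had a signal of 400 or more in both Pou4f1 replicates. The members, gene lists and motifs were chosen with earlier results of these data known. Positions count from 1. Starts (the 5′ ends of all transcripts, several for many genes), exons and genes came from GENCODE M21, distances are to the nearest start, and the location of a region is that of its midpoint. Sequence came from GRCm38.p6, and motifs were searched on both strands in the central 200 bp and in windows 2 kb to each side. Shares are over regions on chromosomes, with 95% Clopper-Pearson intervals. limma 3.58.1 in R 4.3.3 compared log2(signal + 1) of Pou4f1 (n = 2) with IgG (n = 2) over all 8038 regions, without scaling or covariates, with Benjamini-Hochberg adjustment, and was tested on simulated data. Labels do not say whether the pools came from separate litters, so the spread may be technical. The values are not counts, so no count test was run.

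Named regions were the 15 strongest by the lower Pou4f1 value, the 5 of highest IgG mean, the 5 largest and 5 smallest replicate ratios, the 3 nearest the threshold on each side, those with a central Brn-3 consensus and those of listed genes. Regions at histone genes, U3 genes, in exons and in groups were named after their values were seen. Some regions that this rule names are not reported here.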

Additional observations from a re-analysis of the deposited data

How the results depend on the processing

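The threshold moved the number of members, to 943 at 300 and 191 at 500, but few of their properties. At 300 the median GC content was 52.0%, and at 500 the median of the IgG mean was 7.69, against 6.99. With replicate 2 scaled to the median of replicate 1, the share at starts was 47.6% and the GC content 52.1%. Using 1 Pou4f1 replicate alone changed more. Without replicate 1 or replicate 2, the number of members was 914 and 655, the share at starts 25.1% and 58.5%, the share between genes 32.5% and 17.6%, the median length 891 and 975 bp, the GC content 48.9% and 56.7%, the share with the central Brn-3 consensus 14.3% and 9.04%, the median IgG mean 5.43 and 8.61 and the share at 0 in both IgG libraries 34.1% and 24.5%. A limit of 3 kb in place of 1 kb gave 47.5% at starts. Over whole regions 28.7% held the consensus, and the related POU4 core, a different word, was in the central 200 bp of 2.85%. With the library named IgG, and then the negative control, left out, the median IgG signal was 0 and 2.24, and 53.9% and 49.6% of members were listed at 0 in the library that was left. The calls over IgG depended on scaling. With column totals as library sizes 1821 regions and 131 members were higher, and with a pseudocount of 0.1, 244 members. Without Pou4f1 replicate 1 or replicate 2, 2360 and 2484 regions and in either case 163 members were higher. With the library named IgG, and then the negative control, left out, 7587 and 7710 regions and in either case 423 members were. The cause of these shifts was not tested. The other alternatives stayed within the 95% interval of the value reported, or within 1.5 times a count. No paired analysis was possible because the IgG columns carry no replicate number.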

Other observations

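A signal of 400 or more in Pou4f1 replicate 1 but not in replicate 2 was found in 232 regions, and in replicate 2 but not in replicate 1 in 491. Of the former, 90.1% lay within 1 kb of a transcription start and 1.72% held the Brn-3 consensus in the central 200 bp. Of the latter, 11.4% lay within 1 kb of a start and 15.3% held the consensus. Among all regions on chromosomes, the consensus was in 0.680% of those at starts and in 11.0% of those away from starts. The shares of these groups were not split by location, so they do not compare the replicates apart from it.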
